A study of Mus musculus with 3 samples.

Results

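The expression of 10 genes that mark the developmental stage of muscle progenitors was examined in mouse myoblasts that had formed in vivo from gene-edited iPSCs. They comprised 6 regulators typical of embryonic and fetal cells (Lin28b, Hmga1, Hmga2, Igf2bp1, Igf2bp2 and Igf2bp3) and the 4 nuclear factor I genes (Nfia, Nfib, Nfic and Nfix). The genes were taken by name, and all 10 were found among the 35562 genes of the series. Bulk RNA-seq was available for 3 myoblast lines, called 66, 67 and 72, with 1 library a line. All of them shared the Dmdmdx; Pax7-nGFP genotype, in which the mdx allele of dystrophin had been reframed with CRISPR/Cas9 and a nuclear GFP marks cells that use the Pax7 promoter. As the study describes it, iPSCs were made from embryonic fibroblasts, edited as clones, and injected into blastocysts of a strain whose own satellite cells can be removed by tamoxifen. Satellite cells were later sorted from muscles of the chimeras after birth and grown as myoblasts. The labels do not say which line came from a tamoxifen-injected animal, nor the age behind each line, so the lines formed a single group and no condition was compared. Control myoblasts of Pax7-nGFP mice and fibroblasts were not analysed here, so a level in these lines cannot be called fetal or adult from these data.

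Lin28b is an RNA-binding protein of early development that blocks the maturation of let-7, a microRNA family that rises as tissues mature. let-7 in turn represses transcripts of growing, immature cells, among them Hmga2, which encodes a chromatin architectural protein, and the Igf2bp genes, which encode RNA-binding proteins that stabilize and localize transcripts. Nfix is a DNA-binding factor known for turning on the fetal program in myoblasts, and it remains in use in adult satellite cells.

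All 10 genes were detected in every line, over a range of more than 3 orders of magnitude in TPM (a level corrected for transcript length and for the size of the library). The architectural genes Hmga1 and Hmga2 were the most abundant, and Lin28b and Igf2bp1 the least. Of the 10 genes, 7 were at 10 TPM or more in every line, Nfib lay between 1 and 10 TPM, and Igf2bp1 and Lin28b fell under 1 TPM in at least 1 line. Nfia, 1 of the 7, drew 37.1% and 27.6% of its TPM from short transcripts of 821 and 851 bases. Total estimated counts were between 66972426 and 73274315 a library, so that a count of 0 would have allowed at most 0.0448 CPM (the share of a library's counts, scaled as in TPM but without length). The cells carried the markers of their label. All 9 myoblast markers were at 10 TPM or more in every line, whereas all 7 pluripotent cell markers and all 5 endothelial markers were under 1 TPM, as were 5 of 7 fibroblast markers. The other fibroblast markers were Thy1, at 3.51, 5.80 and 3.26 TPM in lines 66, 67 and 72, and Col15a1, at 0.0538, 1.89 and 3.45 TPM, both called apart in a line by the 1.5-fold rule that is applied to the members. Their part in the differences of the members was not tested. Of single immune genes, Ptprc was at most at 0.0531 TPM, and Cd68, a lysosomal protein of macrophages, was between 2.92 and 4.24 TPM over the lines. Lum, Dpt and Dppa4 had a count of 0 in every line. Dmd, the edited gene, was at 1.97, 4.61 and 3.67 TPM in lines 66, 67 and 72, and a gene total does not show which exons were joined.

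The let-7 family was not measured by these poly-A libraries, but its sequence can be set beside the 3′ UTRs of the fetal regulators and the Nfi factors. In RefSeq (GRCm38.p6), 10 mature mouse microRNAs carried the same let-7 seed, bases 2 to 8, which pairs with a target transcript. Of these, 3 are shown with the seed in capitals. They come from chr13:48538239-48538260 (minus strand), chr9:106178846-106178867 (plus strand) and chrX:151913229-151913250 (plus strand).
mmu-let-7a-5p: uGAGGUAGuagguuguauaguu
mmu-let-7g-5p: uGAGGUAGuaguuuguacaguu
mmu-miR-98-5p: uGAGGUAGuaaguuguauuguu

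The complement of that seed, CTACCTC, was searched on the transcript strand of the 3′ UTR. For each gene the coding transcript with the highest mean TPM was taken, among those with an annotated end and a 3′ UTR. For Nfia this was Nfia-202, as Nfia-207 and Nfia-208, with more TPM, lack the end of their coding sequence. The match was found in 6 of 6 fetal regulators and in 1 of 4 Nfi factors, 16 matches in all. Of the 11574 genes that reached 1 TPM on average and had a 3′ UTR, 8.74% held a match, and their median 3′ UTR was 915 bases long. All 10 genes have longer 3′ UTRs. At lengths like those of the members, the share of genes with a match went from 8.03% (Hmga1, the shortest) to 41.2% (Nfia, the longest). Lin28b, Hmga2 and Igf2bp1 each had 4 matches, in 4445, 2977 and 6337 bases. Of 1260 genes with a 3′ UTR of a length like that of Hmga2 (0.8 to 1.25 times), 15.6% had any match and 0% had as many as 4. The corresponding share with at least 4 matches was 0.427% for Lin28b (703 genes) and 0.372% for Igf2bp1 (269 genes). Hmga1, Igf2bp2, Igf2bp3 and Nfia had 1 match each, and 8.03%, 13.1%, 13.8% and 41.2% of genes of like length had at least 1. Nfib, Nfic and Nfix had 0 matches in 6618, 4868 and 3951 bases, where 36.9%, 27.0% and 21% of genes of like length had at least 1. A match is a string of letters and was not tested as a site.

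**Figure D1:**
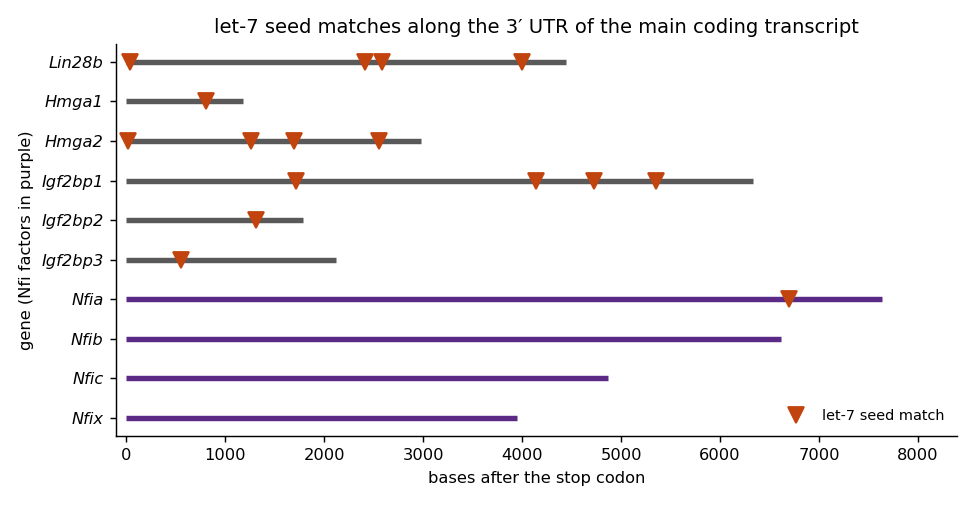
Each bar is the 3′ UTR of a gene's main coding transcript, with the distance from the stop codon in bases on the x axis, and each triangle is a match to the let-7 seed. Lin28b, Hmga2 and Igf2bp1 carry 4 triangles each, the first of them 36, 21 and 1715 bases after the stop codon, and Nfib, Nfic and Nfix carry 0.

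The 4 matches of Hmga2 are shown in their order along the 3′ UTR, 21, 1258, 1696 and 2554 bases after the stop codon, with the match in capitals. The first is followed by an A, which is known as the stronger form of a microRNA match.
Hmga2 at 21: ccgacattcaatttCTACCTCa
Hmga2 at 1258: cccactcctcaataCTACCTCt
Hmga2 at 1696: tgatttgcaaggaaCTACCTCc
Hmga2 at 2554: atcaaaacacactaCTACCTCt

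For comparison, the match nearest to the stop codon is shown for the other genes that had one. Over the 16 matches of all members 7 were followed by an A. These were 3 of 4 in Igf2bp1, 1 of 4 in both Lin28b and Hmga2, and the single matches of Igf2bp2 and Igf2bp3.
Lin28b: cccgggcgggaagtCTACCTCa
Igf2bp1: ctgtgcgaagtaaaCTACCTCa
Igf2bp2: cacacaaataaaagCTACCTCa
Igf2bp3: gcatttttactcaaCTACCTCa
Hmga1: cctctgttcacaaaCTACCTCt
Nfia: atacaggagaagtgCTACCTCt

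Lin28b, on chromosome 10, was scarce and was read mainly in 1 line. It was at 1.95, 0.306 and 0.289 TPM in lines 66, 67 and 72, a mean of 0.847 ± 0.951 (SD, n = 3). Line 66 was thus 6.37-fold above line 67 and 6.72-fold above line 72, and lines 67 and 72 differed by 1.06-fold. Behind these levels were 380 counts in line 66 (exact Poisson 95% interval 343 to 420), 54.0 in line 67 (40.6 to 70.5) and 51.0 in line 72 (38.0 to 67.1). The intervals cover counting error only. They placed line 66 apart from the others, but with 1 library a line this compares libraries and has no replicate check. Lin28a, the paralog of Lin28b that is used in pluripotent cells, had 1 count in line 67 and 0 in the others.

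Hmga1, on chromosome 17, encodes a protein that binds AT-rich DNA and is abundant in proliferating cells. It was at 1446, 1162 and 999 TPM in lines 66, 67 and 72 (1202 ± 226, n = 3), above 99.5% of all detected genes. Hmga2, on chromosome 10, was at 437, 349 and 310 TPM (365.5 ± 64.7, n = 3), above 98.4% of detected genes. Both were highest in line 66 and lowest in line 72, by 1.45-fold and 1.41-fold. Their proportion was nearly constant, with Hmga1 at 76.8%, 76.9% and 76.3% of their summed TPM (76.7% ± 0.321, n = 3). The genes most like Hmga1 in level over the 3 lines were Serpinf1, which encodes a secreted factor, and Ankrd1, a target of mechanical signalling, with largest differences of 0.20 and 0.24 on the log2(TPM + 1) scale. Those most like Hmga2 were Ptbp1, a splicing regulator, and Asb5, with largest differences of 0.11 and 0.12.

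Hmga1 shared the most sequence with another gene. Only 37.9% of its 31-base words occurred in no other gene, and 62.1% were shared with Hmga1b, a near copy. Hmga1b had been given 134, 73.9 and 46.1 counts in the 3 lines, against 124660, 91653 and 82766 for Hmga1, so the split between them rests on the authors' estimation. Igf2bp3 shared 18.4% of its words with Malsu1, which lies on the opposite strand, and 99.8% were its own when strand was kept. The strand setting of the counting is not given in the sources used here, so its reads could also fit Malsu1. The other 8 genes had between 96.5% and 99.7% of their words to themselves.

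The Igf2bp family was carried by Igf2bp2. This gene, on chromosome 16 and the family member that is also used in adult tissues, was at 89.1, 95.1 and 90.8 TPM in lines 66, 67 and 72 (91.7 ± 3.10, n = 3). Its range was 1.07-fold, and it made up 79.2% ± 5.12 (n = 3) of the family's TPM. Igf2bp3, on chromosome 6, was at 26.6, 16.8 and 24.2 TPM (22.5 ± 5.08, n = 3), lowest in line 67 and 19.3% ± 3.84 of the family. Igf2bp1, on chromosome 11, was at 3.53, 0.202 and 1.55 TPM (1.76 ± 1.68, n = 3), with 580, 22 and 169 counts. Its counting intervals (534 to 629, 13.8 to 33.3 and 144 to 196) did not overlap between any of the lines, and line 66 was 17.5-fold above line 67 and 2.28-fold above line 72.

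The level of Igf2bp1 depended on which of its transcripts were summed. The coding transcript, Igf2bp1-201 of 8378 bases, held 84.9% ± 4.92 of the gene's counts but only 24.8% ± 6.66 of its TPM. The remaining TPM came from short non-coding models, 2 of which (Igf2bp1-202 and Igf2bp1-205, 690 and 576 bases) held 6.04% and 4.82% of counts and 32.1% and 30.2% of TPM. Counted over the coding transcript alone, Igf2bp1 was at 1.15, 0.0420 and 0.326 TPM (0.505 ± 0.574, n = 3), with line 66 27.4-fold above line 67 and 3.52-fold above line 72. The order of the lines was kept, and Igf2bp1 then stood below Lin28b, which was at 0.750 ± 0.853 TPM over its own coding transcript.

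The Nfi factors were led by Nfic and Nfix. Nfic, on chromosome 10, was at 88.5, 113 and 99.2 TPM in lines 66, 67 and 72 (100.3 ± 12.4, n = 3) and made up 58.8% ± 1.82 of the family's TPM. Nfix, on chromosome 8, was at 45.9, 63.8 and 49.3 TPM (53.0 ± 9.53, n = 3) and made up 30.9% ± 1.18. Nfia and Nfib both lie on chromosome 4. Nfia was at 14.7, 18.5 and 12.3 TPM (15.2 ± 3.15, n = 3), and Nfib at 2.22, 2.35 and 2.26 TPM (2.27 ± 0.0665, n = 3). In TPM summed over all transcripts Nfib had the narrowest range of the 10 genes at 1.06-fold. Over coding transcripts alone its range was 1.07-fold, and that of Igf2bp2 was narrower at 1.02-fold. The family shares of Nfia and Nfib were 8.88% and 1.35%. All 4 genes were highest in line 67, although for Nfib the range was narrower than the counting interval of any line (756 to 869, 715 to 824 and 728 to 839 counts).

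**Figure D2:**
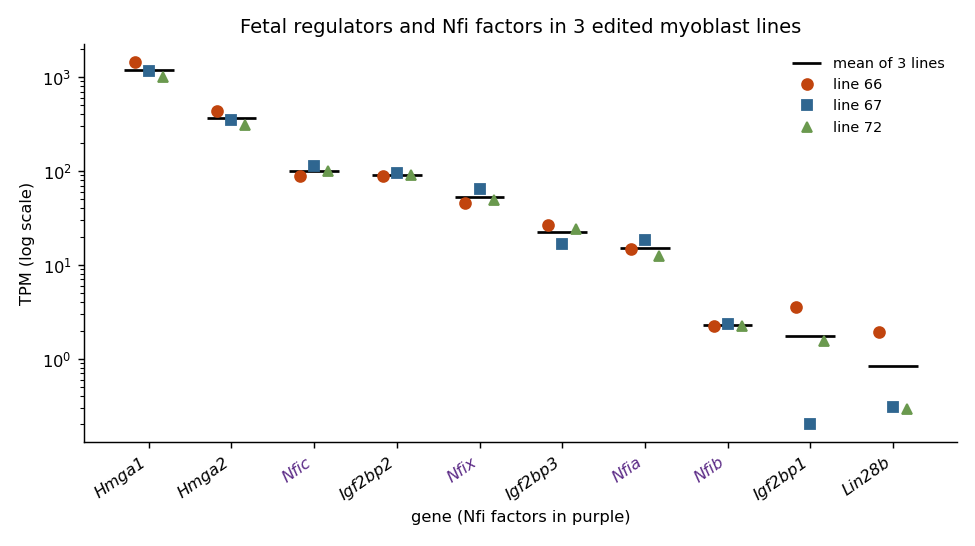
TPM of each gene in lines 66, 67 and 72 on a log axis, in order of the mean over the lines (black bar). Hmga1 and Hmga2 stand above all other members in every line, and the points of Igf2bp1 and Lin28b are spread the widest.

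In order of mean TPM the genes ran Hmga1, Hmga2, Nfic, Igf2bp2, Nfix, Igf2bp3, Nfia, Nfib, Igf2bp1 and Lin28b. Of the 9 neighbouring pairs, 5 did not overlap over the lines. These were Hmga1 and Hmga2 (mean difference 1.71 ± 0.026 on the log2(TPM + 1) scale), Hmga2 and Nfic (1.85 ± 0.38), Igf2bp2 and Nfix (0.79 ± 0.20), Nfix and Igf2bp3 (1.21 ± 0.58), and Nfia and Nfib (2.29 ± 0.26). The pairs were formed by sorting the same values, so no p is read from them, and an exact permutation test over 3 lines cannot go below 0.25. The other 4 pairs changed places in at least 1 line: Nfic with Igf2bp2 in line 66, Igf2bp3 with Nfia in line 67, Nfib with Igf2bp1 in line 66, and Igf2bp1 with Lin28b in line 67. Over coding transcripts alone Igf2bp2 was at 58.1, 56.8 and 57.0 TPM, and overlapped with Nfix instead of Nfic, and Nfib and Igf2bp1 no longer overlapped.

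The median log2(TPM + 1) of the 6 regulators exceeded that of the 4 factors by 0.88, 0.22 and 0.89 in lines 66, 67 and 72 (0.66 ± 0.39, n = 3). With coding transcripts alone the differences were 0.53, -0.19 and 0.52, and with CPM in place of TPM 0.72, -0.11 and 0.61, so that the direction in line 67 turned under both. The coding setting did not treat the 2 sides alike. Igf2bp2 kept 62.6% of its TPM, but Nfia kept 100%, since its short transcripts Nfia-207 and Nfia-208 are listed as coding. The median of the regulators lies between Igf2bp2 and Igf2bp3, and that of the factors between Nfix and Nfia. Both medians therefore say little of Hmga1 or Lin28b.

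The regulators and the factors did not peak in the same line. The highest TPM was in line 66 for 5 of 6 fetal regulators, with Igf2bp2 the exception, and in line 67 for 4 of 4 Nfi factors. Over all 12528 genes that averaged 1 TPM or more, the shares that were highest in lines 66, 67 and 72 were 29.8%, 25.8% and 44.4%. The genes of a group are read in the same 3 libraries and are not replicates of each other, and no p is given. All 4 Nfi factors were highest in line 67 under each of 5 scalings (TPM, CPM, TMM, DESeq2's size factors, and TPM relative to the chromosome). For the regulators the count was 5 or 6 of 6 in line 66, since Igf2bp2 moved between lines 66 and 67.

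Few of these differences were large. A gene was called apart in a line where its TPM was over 1.5-fold from both other lines in the same direction. Of genes that averaged 1 TPM or more, the shares called in lines 66, 67 and 72 were 5.57%, 3.67% and 3.89%, in either direction. Of the 9 members that passed this filter, Igf2bp1 was called, high in line 66 and low in line 67. It passed the filter only through its level in line 66 (3.53 TPM, against 0.202 and 1.55 TPM in lines 67 and 72). Hmga1, Hmga2, Igf2bp2, Igf2bp3 and the 4 Nfi factors were not called in any line. Without the filter, among 21128 genes with a TPM above 0 in every line, 14.2%, 12.9% and 13.3% were called in lines 66, 67 and 72. Lin28b was then called as high in line 66. Counted over any line, 1 of 9 members was called with the filter, where 11.3% of genes were, and 2 of 10 without it, where 32.8% of genes were. The 1 of 9 is Igf2bp1, which line 66 carried through the filter, so this count is not read as a result. With coding transcripts alone Igf2bp1 had a mean under 1 TPM, and 0 members were called.

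By the spread between lines, Igf2bp1 and Lin28b again stood apart. The biological coefficient of variation, the share by which a gene's level varies between libraries beyond counting error, was 0.882 for Igf2bp1 and 0.754 for Lin28b in an intercept-only fit of edgeR. The medians of genes within 2-fold of their level were 0.245 and 0.262, and 99.9% and 99.2% of those genes varied less. Igf2bp2 was at the other end with 0.0917, a value below which lay 5.16% of genes of like level. Hmga1, Hmga2, Igf2bp3, Nfia and Nfix lay between 0.151 and 0.199, above 89.2% to 92.3% of genes of like level. Nfic (0.116) and Nfib (0.171) were above 72.5% and 33.8% of such genes, and the value of Nfib was 0.105 with DESeq2's dispersion. Without line 66, the coefficients of Lin28b, Hmga1 and Hmga2 were 0.237, 0.106 and 0.102, while the common coefficient of all genes went from 0.207 to 0.179, and without line 67 that of Igf2bp1 was 0.470.

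Several members lie on chromosomes whose genes shifted together in line 66. For each gene, the log2 difference between a line and the average of its 2 counterparts was taken, less the median difference over all genes. In line 66 the median of this value was 0.28 over 425 genes of chromosome 10 and 0.32 over 699 genes of chromosome 11. Chromosome 6 was shifted by 0.15 over 397 genes in line 72. Lin28b and Igf2bp1 exceeded their chromosomes by far in line 66, with 1.24 on chromosome 10 and 1.33 on chromosome 11. Hmga2 was at 0.46, against 0.28 for chromosome 10. Nfic, on the same chromosome, went the other way with -0.20, and Hmga1 was at 0.48 on chromosome 17, where the median was 0.02. Relative to the medians of their chromosomes, line 66 remained 5.61-fold above the mean of the other lines for Lin28b and 3.43-fold for Igf2bp1, against 6.54-fold and 4.04-fold before. For Hmga2 the fold fell from 1.32 to 1.14.

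**Figure D3:**
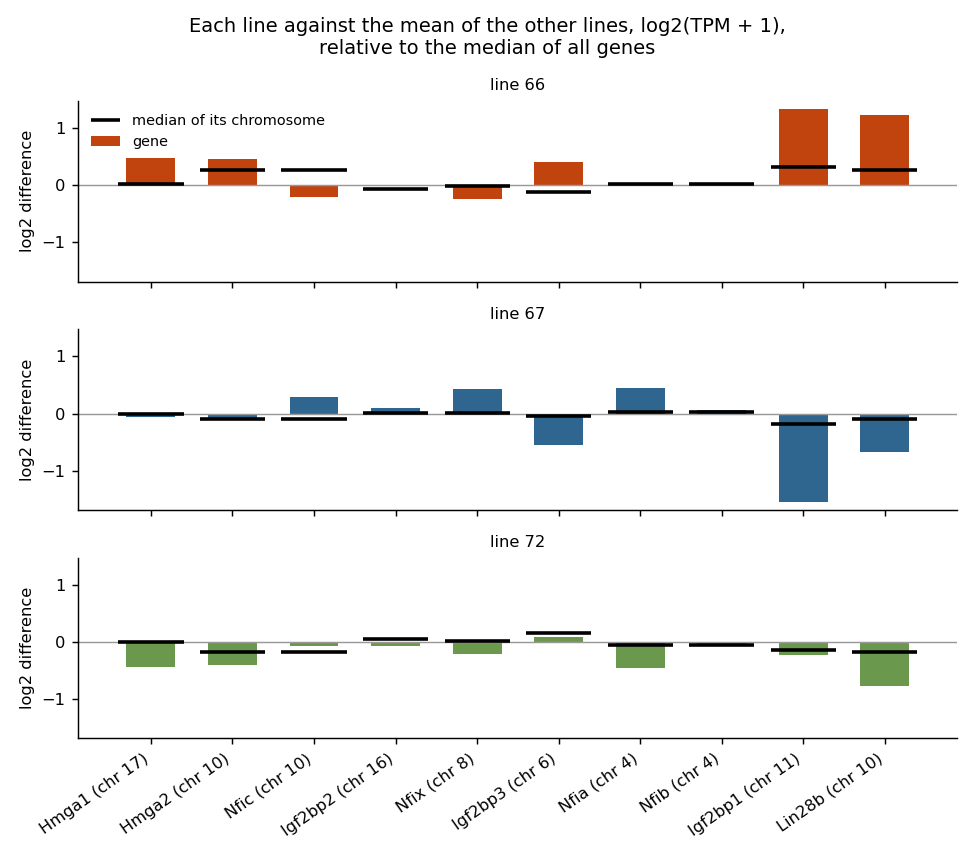
Bars give, for each gene, the log2 difference in TPM + 1 between a line and the average of its counterparts, less the median difference over all genes. Black lines give the median of the other genes on its chromosome. In line 66 the bars of Igf2bp1 and Lin28b reach 1.33 and 1.24, over chromosome medians of 0.32 and 0.28, and the bar of Nfic points away from its chromosome's line.

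Markers of the state of the cells were also compared between the lines. The summed TPM of 6 markers of differentiating muscle was 1007, 1496 and 1773 in lines 66, 67 and 72, lowest for 6 of 6 markers in line 66, where 44.2% of all genes that averaged 1 TPM or more were lowest. Of the 6, 3 were called apart in a line (50.0%, against 11.3% of all genes). The summed TPM of 5 cell cycle markers was 524, 725 and 681, and each of these markers was also lowest in line 66. Of the 5, 2 were called apart in a line (40.0%, against 11.3% of all genes). The low sums of both lists went along with the high levels of the fetal regulators in line 66, and their part in them was not tested. In bulk RNA, fewer cells of a kind and less RNA per cell cannot be told apart.

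The transcripts read from these genes differed little between lines for most members. The leading transcript was Hmga2-201 (96.8% ± 0.393 of counts), Igf2bp3-201 (98.3% ± 0.262), Lin28b-201 (93.8% ± 1.68), Nfix-204 (85.5% ± 0.202) and Nfic-203 (68.0% ± 0.634), each with n = 3. Hmga1 was read as a pair of coding forms, as is known for this gene. Transcripts with 288 coding bases, which encode 96 residues, held 60.6%, 63.1% and 64.4% of its counts in lines 66, 67 and 72. Those with 321 coding bases, which encode 107 residues, held 35.5%, 32.4% and 31.3%.

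Igf2bp2, Nfia and Nfib had the lowest shares in their leading transcript. Igf2bp2 was split between the coding Igf2bp2-201 (1776 coding bases, 40.9% ± 4.05 of counts) and Igf2bp2-202 (1572 coding bases, 30.8% ± 2.75) and the non-coding Igf2bp2-210 (25.6% ± 1.20). For Nfib, the leading form was Nfib-202, which has 1260 coding bases, with 67.9%, 56.3% and 44.1% of counts in lines 66, 67 and 72. The longer Nfib-201, with 1710 coding bases, held 14.3%, 27.9% and 34.0%. The total level of Nfib was nearly constant while its forms varied between lines. For Nfia, the leading Nfia-202 held 54.9% ± 2.32 of counts. Lesser forms varied between lines, with Nfia-205 at 8.06%, 15.9% and 21.1% and Nfia-201 at 7.79%, 3.44% and 2.37% in lines 66, 67 and 72. The short models Nfia-207 and Nfia-208 (821 and 851 bases) held 7.93% and 4.87% of counts but 37.1% and 27.6% of TPM, so that the TPM of Nfia, like that of Igf2bp1, rests largely on short models. Such splits between overlapping models are estimates.

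**Figure D4:**
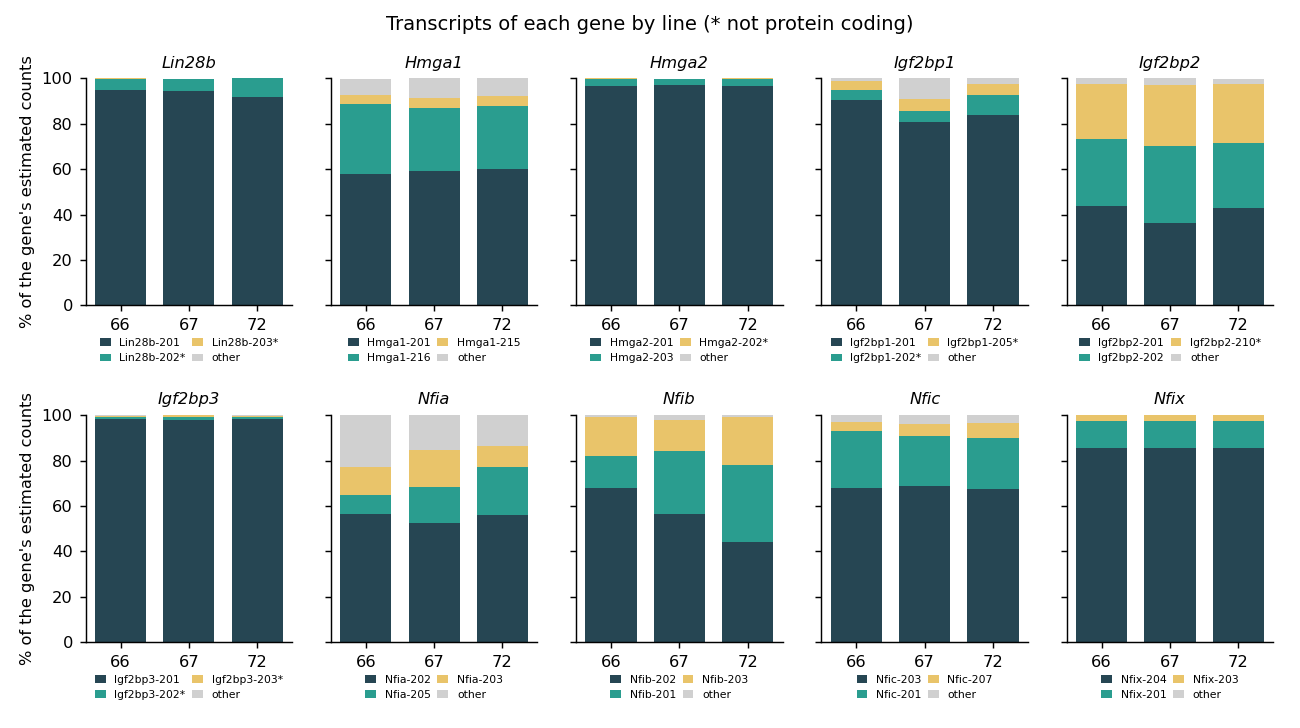
Stacked bars give each transcript's percentage of its gene's estimated counts in lines 66, 67 and 72, with the leading transcripts in colour and the rest in grey. Most genes show like bars in all lines, and the dark segment of Nfib, Nfib-202, falls from 67.9% in line 66 to 44.1% in line 72.

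The machinery on which Lin28b acts was present. Of 13 genes for let-7 processing and its control, 9 (69.2%) were at 10 TPM or more in every line and 1, Lin28a, under 1 TPM. Of 25510 detected genes, 31.5% were at 10 TPM or more and 49.1% under 1. Of genes that averaged 1 TPM or more, 64.2% were at 10 TPM or more, close to the share of the list. The highest were Hnrnpa1, an RNA-binding protein that acts on let-7 precursors (1503 ± 81.0 TPM, n = 3), and Khsrp, another precursor-binding protein (82.7 ± 2.89). Lin28a and Trim71 were the lowest. Trim71, a ubiquitin ligase that is itself a let-7 target, was at 2.80, 0.362 and 1.05 TPM in lines 66, 67 and 72. Like Igf2bp1 it was highest in line 66 and lowest in line 67, as were 17.5% of all genes that averaged 1 TPM or more. Of the 12 list genes at such a mean, 7 were highest in line 72. The list's median log2(TPM + 1) was 5.21, 5.39 and 5.50 in the 3 lines, against 0.89, 0.85 and 0.91 for all detected genes and 4.36, 4.37 and 4.42 for genes that averaged 1 TPM or more. Of 3 transcripts that host let-7 genes, Mir100hg was at 178 ± 18.1, Huwe1 at 87.3 ± 3.70 and Mir99ahg at 2.58 ± 0.208 TPM (n = 3). A host transcript does not give the level of the mature microRNA.

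Genes that let-7 is known to repress had no common direction between lines. Of 19 such genes other than the members, 12 (63.2%) were at 10 TPM or more in every line and 1 was under 1 TPM. At 10 TPM or more were 31.5% of detected genes and 64.2% of those that averaged 1 TPM or more. The highest were Ccnd1 and Ccnd2, cyclins of the G1 phase, at 466 ± 49.7 and 258 ± 58.6 TPM, and the lowest were Mycn at 0.117 ± 0.0626 and Trim71 (n = 3). Of the 18 that averaged 1 TPM or more, 3, 5 and 10 were highest in lines 66, 67 and 72, or 16.7%, 27.8% and 55.6%, against 29.8%, 25.8% and 44.4% of all genes at such a mean. Of these 18 genes 2 were called apart in a line, or 11.1%, against 11.3% of all genes at such a mean called in any line.

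Of 9 transcripts known to be bound by the IGF2BP proteins, 8 (88.9%) were at 10 TPM or more in every line, against the same 31.5% and 64.2%. Actb, whose transcript is localized by this family, was at 3278 ± 34.9 TPM, and Igf2, the growth factor transcript that gave the family its name, at 899, 1199 and 1760 TPM in lines 66, 67 and 72. The lowest were Btrc (19.6 ± 1.07) and H19, a fetal non-coding RNA (1.27, 0.242 and 1.13 TPM). H19 was lowest in line 67, as were Igf2bp1 and Igf2bp3. Igf2 was lowest in line 66, where Igf2bp1 and Igf2bp3 were highest. None of the 8 that averaged 1 TPM or more was called apart, against 11.3% of all genes.

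Of 13 genes linked to Nfix in myogenesis, 7 (53.8%) were at 10 TPM or more in every line, against 31.5% of detected genes and 64.2% of those that averaged 1 TPM or more. The highest were Rhoa, a small GTPase (564 ± 46 TPM), and Eno3, the muscle enolase (517 ± 79.3), and the lowest were Prkcq at 0.339 ± 0.00181 and Nfatc4 at 0.931, 1.51 and 0.468 TPM in lines 66, 67 and 72. The median log2(TPM + 1) of the list was 4.38, 5.35 and 5.31 in the 3 lines. In lines 66 and 67 it was the value of 1 gene, Mef2c (19.9 and 39.9 TPM). The median in line 66 was close to the 4.36 of genes that averaged 1 TPM or more. Of the 11 that averaged 1 TPM or more, 4 were called apart in a line (36.4%, against 11.3% of all genes). These were chosen after their values were seen. They are Mef2c, Myh7, Ckm and Mstn, and all were lowest in line 66 and highest in line 72, as were 27.0% of all genes that averaged 1 TPM or more and 5 of 6 markers of differentiating muscle, with Tnnt3 the exception, whereas Nfix was highest in line 67. The other high mobility group genes were all at 10 TPM or more in every line (7 of 7, against the same 31.5% and 64.2%). The highest were Hmgb1 (1262 ± 68.7) and Hmgn1 (494 ± 24.4), and the lowest Hmgn5 (35.6 ± 3.22) and Hmgn3 (110.5 ± 10.5). Of the 7, 0 were highest in line 66, where 29.8% of all genes that averaged 1 TPM or more were highest.

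**Figure D5:**
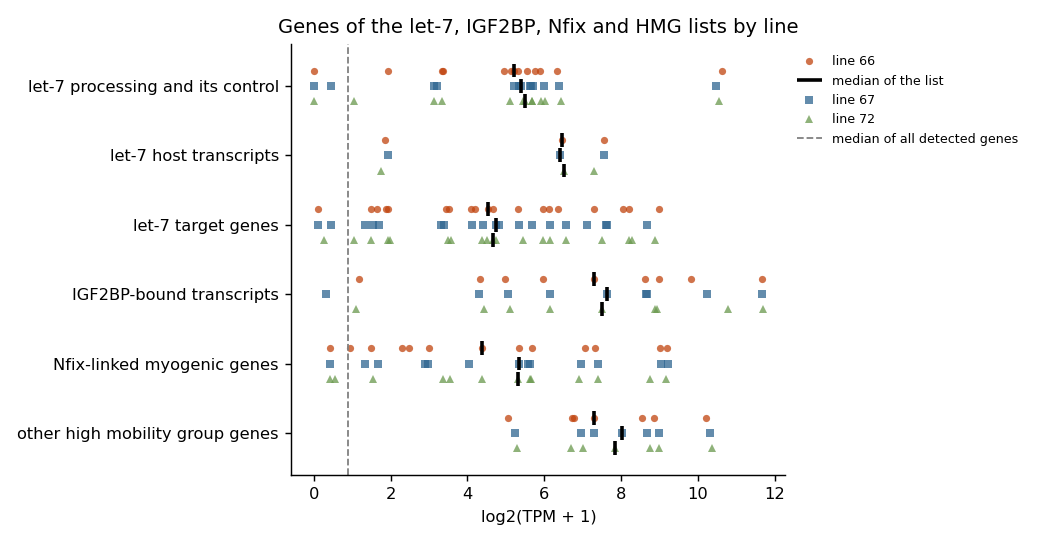
Each point is a gene of a list in a line, on the log2(TPM + 1) scale, with the list's median as a black bar and the median of all detected genes as a dashed line. The medians of all 6 lists lie above the dashed line in every line, although genes that averaged 1 TPM or more have medians of 4.36 to 4.42, and the Nfix-linked genes have their lowest median, 4.38, in line 66. That median is the value of a single gene, Mef2c.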

How the data were processed

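Poly-A RNA of 3 myoblast lines was sequenced from stranded libraries, 1 a line. The submitters' processing notes name bcl2fastq 2.20, fastp 0.20, kallisto 0.46.1 and GRCm39. The annotation release and the strand setting are not given in the sources used here. The authors deposited an estimated count per transcript, which splits each read between the transcripts it fits, and a TPM value, which divides that count by effective length and scales each library to 1000000. Transcripts were matched by identifier to GENCODE M21 (GRCm38). Of 121798, 1112 had no match (0.493% to 0.535% of counts) and were left out. Both units were summed per gene, and log2 values used a pseudocount of 1. Since the builds differ, genes are placed by chromosome only.

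Members and lists were chosen with earlier results of these data known. The members were all named, along with the 2 highest and 2 lowest genes of each list and the 2 genes nearest to Hmga1 and Hmga2. Mir100hg was matched through a RefSeq synonym. Chromosome medians used genes that averaged 10 TPM or more, without the members, and 3′ UTRs of like length were those of genes that averaged 1 TPM or more. The spread was estimated with edgeR 4.0.16 (TMM, filterByExpr, counts rounded, 15654 genes), and DESeq2 1.42.0 served as an alternative. Python 3.11.15 and R 4.3.3 were used, and calls and spread were tested on simulated data. The line was the replicate. The labels do not say that the lines came from separate animals, so p-values measure only the spread between these samples.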

Additional observations from a re-analysis of the deposited data

How the results depend on the processing

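No paired analysis was possible because all libraries belong to 1 group and leave nothing to pair. The difference between fetal regulators and Nfi factors kept its direction under all alternatives (0.41 with CPM, 0.28 with coding transcripts alone, an alternative chosen after seeing the data, and 0.55 to 0.89 when 1 line was left out), but with both of the former its sign in line 67 was negative (-0.11 and -0.19). The number of neighbouring pairs that did not overlap was between 5 and 7. With CPM, which leaves transcript length in, Hmga1 minus Hmga2 was 0.77 in place of 1.71 and Igf2bp2 minus Nfix 0.20 in place of 0.79 (log2). Igf2bp2 and Nfix then overlapped, and Nfic and Igf2bp2, and Nfib and Igf2bp1, did not. On the log2 scale, Nfib minus Igf2bp1 turned to -0.070 without line 67 and lay between -0.070 and 0.92 when any 1 line was left out, against 1.83 with CPM and 1.17 with coding transcripts alone, and Igf2bp1 minus Lin28b to -0.18 with coding transcripts alone. The count of genes apart in any line, 1420, was 390 with a minimum mean of 10 TPM, 6921 without a minimum and 499 with a fold of 2. The count of members called, 1, was 0 with the minimum of 10 TPM, 2 without a minimum and 0 with coding transcripts alone. Scaling with TMM or DESeq2's size factors gave 1334 and 1332 genes and moved the share of higher calls in line 66 from 48.6% to 57.1% and 56.6%, and in line 72 from 59.8% to 48.4% and 48.5%. The medians of the 6 lists lay 3.76 to 6.83 (log2) above that of all detected genes, and 0.26 to 3.33 above that of genes averaging 1 TPM or more. The common coefficient of variation, 0.207, lay between 0.179 and 0.218 when 1 line was left out, and DESeq2's median dispersion gave 0.144. Of 208 comparisons of single genes or lists with their alternatives, 175 counted as unchanged, 31 moved by more than the spread or limit set for them and the 2 above reversed. Pairs of neighbours were judged by sign alone, so Hmga1 minus Hmga2 counted as unchanged with CPM although it fell to 0.77. A level or list median with 1 line left out cannot move by its SD over 3 lines, so it always counted as unchanged. The 175 is therefore not read as a measure of stability. A library of this depth does not limit the detection of the members, but 1 library a line leaves every difference between lines without a replicate.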
